A study of Mus musculus with 16 samples.

Results

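The 7 genes described here, Foxp3, Ikzf2, Il2ra, Ccr8, Il10, Areg and Izumo1r, are genes known for their expression in regulatory T cells, and they were taken by name from the 31053 features of the count matrices, with earlier results of these data known. All 7 were measured in each of 16 single-cell libraries of CD45+ cells from subcutaneous tumors in C57BL/6J mice, aged 6 to 8 weeks per the methods. The 4 groups were untreated MC38 tumors (MC38 NT), MC38 tumors 24 h after a single 12 Gy dose of CT-guided radiation (MC38 RT), untreated Panc02-SIY tumors (Panc02-SIY NT) and Panc02-SIY tumors 24 h after the same dose (Panc02-SIY RT). MC38 is a mouse colorectal carcinoma line, Panc02-SIY is a mouse pancreatic adenocarcinoma line that carries the model antigen SIY, and the labels give C57BL/6J as the genotype of every host. The labels give 4 replicates per group, whereas the methods give 3 animals per group without naming the animal of each library, so that every p-value below measures only the spread between these libraries.

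Regulatory T cells are CD4 T cells that restrain other immune cells and accumulate in many tumors. Foxp3 is the transcription factor that fixes their identity, and Ikzf2 encodes Helios, a zinc finger factor that is also found in other lymphocytes. Il2ra encodes CD25, the chain that gives the receptor for interleukin-2 its high affinity, and it appears on other T cells once they are activated. Ccr8 is a chemokine receptor of tumor regulatory T cells, Il10 encodes a secreted cytokine that dampens inflammation, and Areg encodes amphiregulin, a growth factor for the epidermal growth factor receptor that takes part in tissue repair. Izumo1r encodes folate receptor 4, a surface protein of regulatory T cells.

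In the mouse annotation of build GRCm38, which is the mm10 assembly named in the submitters' processing notes, Foxp3 spans chrX:7573644-7595245 and Areg spans chr5:91139599-91148432, both on the plus strand. Il10 (chr1:131019845-131024974), Il2ra (chr2:11642807-11693193) and Ccr8 (chr9:120092114-120094906) are also on the plus strand, and Ikzf2 (chr1:69531214-69687245) and Izumo1r (chr9:14885814-14903949) are on the minus strand. The 250 bases before the start of Areg and before a start record of Foxp3 are shown. Foxp3 was the member whose counts were most confined to 1 group of cells. Areg was the only member called after radiation in the full set of CD45+ cells. The RefSeq promoter records on build GRCm38.p6 cover 5 of the 7 members, and Ikzf2 and Il10 are named only. Capitals in Areg (chr5:91139349-91139598, plus strand) mark TGACGTCA, the sequence bound by cyclic AMP response element binding proteins, which lies 61 bases before the start. Capitals in Foxp3 (chrX:7580233-7580482, plus strand, for the second of its start records) mark TTCNNNGAA, the pattern bound by STAT5, which lies 139 bases before that start. This stretch lies inside the Foxp3 span given above, and the bases before its other start record are not shown. Both strands were searched, each motif reads the same on both, and the motifs were chosen after the levels were known. Of 32851 promoters of this length, 508 (1.55%) held TGACGTCA and 2306 (7.02%) held TTCNNNGAA, and a match is a description of the letters alone.
Areg: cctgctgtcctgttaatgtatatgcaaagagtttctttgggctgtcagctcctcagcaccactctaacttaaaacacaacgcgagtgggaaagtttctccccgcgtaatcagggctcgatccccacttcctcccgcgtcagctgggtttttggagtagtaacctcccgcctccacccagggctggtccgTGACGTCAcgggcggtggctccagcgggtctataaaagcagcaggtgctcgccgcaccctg
Foxp3: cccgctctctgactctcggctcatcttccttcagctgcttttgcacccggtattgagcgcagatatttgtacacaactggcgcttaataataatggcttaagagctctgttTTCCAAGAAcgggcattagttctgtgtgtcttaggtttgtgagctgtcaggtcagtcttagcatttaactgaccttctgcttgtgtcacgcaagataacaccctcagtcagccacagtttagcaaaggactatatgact

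The libraries held 28678 barcodes, and many barcodes occurred in more than 1 library of the same tumor. In MC38, 1239 of 2632 distinct barcodes (47.1%) were found in several libraries and 769 in all 8, whereas in Panc02-SIY 187 of 18136 (1.03%) were shared. Each barcode was therefore counted once, in the library of its tumor that held most of its unique molecular identifiers (UMIs, each standing for 1 captured RNA molecule). This left 147 to 609 barcodes and 1385711 to 8500889 UMIs per MC38 library and 1113 to 4452 barcodes and 5275195 to 43708746 UMIs per Panc02-SIY library. Shared barcodes were uneven across MC38 cell classes, at 63.7% of macrophage-like barcodes, 29.2% of T cells and 14.6% of regulatory T cell-like barcodes, so results are also given without them. All levels are CPM, the UMIs of a gene per 1000000 UMIs of the cells named, and reads from the 3' end make CPM comparable between genes without a length term.

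The members marked 1 group of cells most strongly. T cells were grouped by genes other than the 7 members, and the group with 450 barcodes was called regulatory T cell-like because 9 of 10 independent markers, among them Ctla4, Tnfrsf4, Tnfrsf18 and Lrrc32, were raised in it. Foxp3, Il10, Maf, Ikzf2 and Tnfrsf4 led its genes by fold. Of 7 natural killer (NK) cell markers, 6 were at 0 in it in MC38 NT and 3 in MC38 RT, with summed levels of at most 40.3 CPM, whereas in Panc02-SIY the sum reached 703 CPM in NT and 206 CPM in RT. The 6 CD8 T cell markers summed to 161 to 1360 CPM in MC38 NT, with Cd8a, Cd8b1, Gzmk and Eomes at 0. They summed to 844 to 1251 CPM in MC38 RT, where only Gzmk and Eomes were at 0. All 6 were detected in Panc02-SIY, at 1155 to 2216 CPM in NT and 946 to 2499 CPM in RT. The 6 CD4 T cell markers summed to 645 to 930 CPM in MC38 NT and 1433 to 2531 CPM in MC38 RT. In Panc02-SIY they summed to 1008 to 1573 CPM in NT and 1033 to 1219 CPM in RT. Igfbp4 was at 0 in every group, and Tnfsf8 in MC38 NT. The second-best name for this group was type 2 innate lymphoid cell, with 3 of 6 markers raised. These markers summed to 161 to 334 CPM in MC38 NT and 144 to 350 CPM in Panc02-SIY NT, with Il13, Il4, Il5 and Hs3st1 at 0. They summed to 235 to 1458 CPM in MC38 RT and 238 to 1095 CPM in Panc02-SIY RT. There only Il5 and Hs3st1 were at 0, so Il13 and Il4 were detected in RT alone. The part of these markers in the member levels was not tested. In MC38 these cells numbered 89 (36 in NT and 53 in RT), and in Panc02-SIY they numbered 361 (156 in NT and 205 in RT). The MC38 ones held 6202 to 56000 UMIs per library in NT and 13034 to 99158 in RT. The Panc02-SIY ones held 62313 to 267978 in NT and 83121 to 349341 in RT. A marker at 0 in MC38 therefore sets a looser limit than a 0 in Panc02-SIY.

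Pooled over libraries, Foxp3 was at 237 CPM in the regulatory T cell-like barcodes of MC38 and 485 CPM in those of Panc02-SIY, against 11.2 and 2.0 CPM in the remaining T cells. Ikzf2 was the most abundant member, at 3011 CPM in MC38 and 3543 CPM in Panc02-SIY against 257 and 222 CPM in the remaining T cells. Il2ra was at 1367 CPM in MC38 and 1157 CPM in Panc02-SIY against 149 and 118 CPM. These 3 genes therefore kept their order within each tumor, with the smallest contrast to other T cells for Il2ra. Il10 was at 545 CPM in MC38 and 784 CPM in Panc02-SIY, above Foxp3 in both. Areg (393 and 324 CPM) and Izumo1r (280 and 420 CPM) lay above Foxp3 in MC38 and below it in Panc02-SIY. Ccr8 was lowest, at 39.5 and 30.3 CPM. Ccr8 rested on 49 UMIs in all MC38 barcodes and 323 in all Panc02-SIY barcodes, so its levels per library are coarse.

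**Figure D1:**
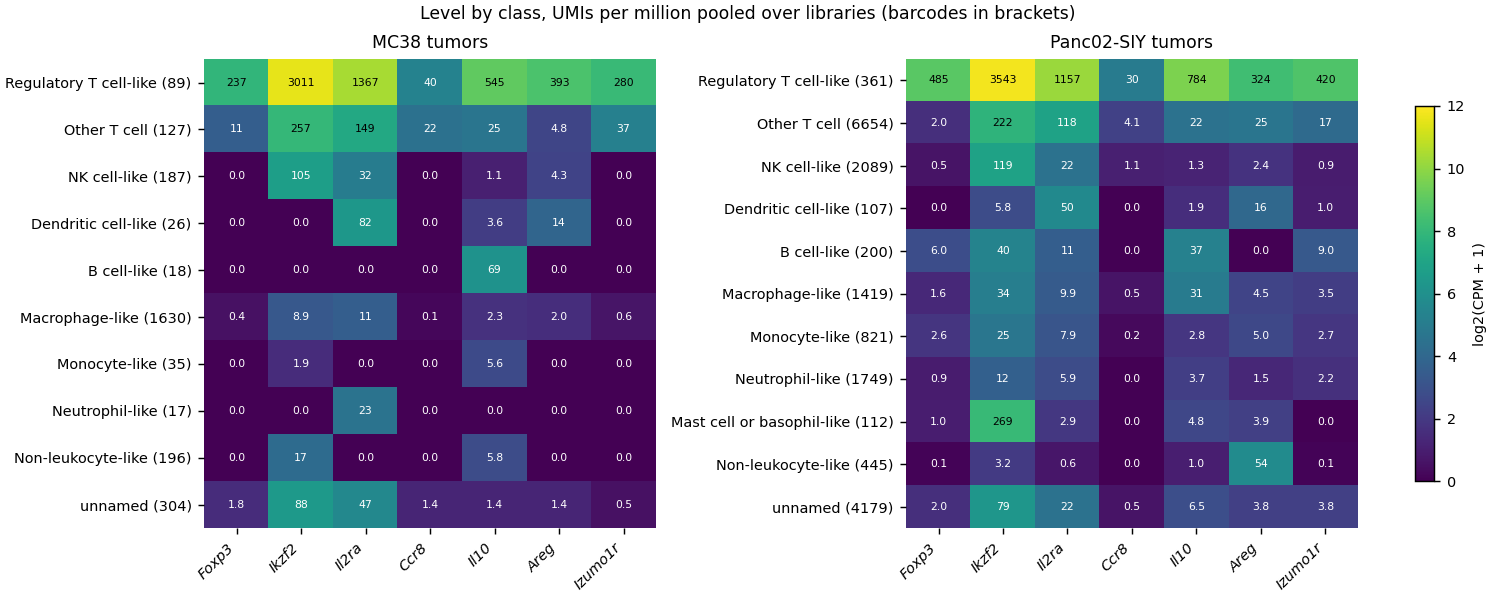
Level of each member (columns) in each cell class (rows) in CPM, pooled over the 8 libraries of a tumor and colored on a log2(CPM + 1) scale, with the number of barcodes in brackets. The regulatory T cell-like row holds the highest value of every member in both tumors, with Foxp3 at 237 CPM in MC38 and 485 CPM in Panc02-SIY, and other classes share Ikzf2, Il2ra, Il10 or Areg.

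The share of each gene's UMIs that came from regulatory T cell-like barcodes differed widely between members. It was 71.8% for Foxp3 in MC38 and 77.5% in Panc02-SIY, where these barcodes were a small part of all cells. For Ikzf2 it was 53.6% in MC38 and 24.9% in Panc02-SIY, and for Il2ra 40.4% and 18.7%. In Panc02-SIY the share was 36.0% for Izumo1r, 35.9% for Il10, 18.1% for Areg and 14.9% for Ccr8. In Panc02-SIY most UMIs of every member except Foxp3 thus lay outside the regulatory T cell-like barcodes.

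Other cells held these genes too. Ikzf2 was at 119 CPM in NK cell-like barcodes of Panc02-SIY and 105 CPM in those of MC38, and at 269 CPM in mast cell or basophil-like barcodes of Panc02-SIY. Within T cells, Ikzf2 reached 938 CPM in a sub-cluster of 733 barcodes led by the NK receptor genes Klra7 and Klra1. Il2ra was at 81.8 CPM in MC38 and 50.4 CPM in Panc02-SIY in dendritic cell-like barcodes, and at 413 CPM in a gamma delta T cell-like sub-cluster of 33 barcodes. Areg reached 282 CPM and Il2ra 372 CPM in a T cell sub-cluster of 221 barcodes that was led by Csf2, Il13, Tnfsf8 and Il4, where Foxp3 was at 1.2 CPM. Areg was also at 53.7 CPM in the non-leukocyte-like barcodes of Panc02-SIY, with no UMI in those of MC38. Il10 was at 82.0 CPM in a CD8 T cell-like sub-cluster led by Ccl5, Gzma and Gzmk, and at 30.6 CPM in the macrophage-like barcodes of Panc02-SIY against 2.3 CPM in those of MC38.

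In Panc02-SIY, Ikzf2 and Il2ra were found in most T cell barcodes with a Foxp3 UMI. Izumo1r, Il10 and Areg were found in a minority of them, but more often than in barcodes without one. After each T cell barcode was thinned to 1000 UMIs, so that depth was equal, Ikzf2 was detected in 83.3% of 60 Foxp3-positive barcodes of Panc02-SIY NT and in 16.1% of 3774 Foxp3-negative ones. Il2ra was detected in 58.3% and 8.51% of the same barcodes, Izumo1r in 26.7% and 2.01%, Il10 in 25.0% and 1.56%, and Areg in 13.3% and 1.64%. Ccr8 was rarer, in 3.33% and 0.530%. In Panc02-SIY RT the corresponding shares of 67 Foxp3-positive barcodes were 89.6% for Ikzf2, 62.7% for Il2ra, 34.3% for Izumo1r, 28.4% for Il10, 16.4% for Areg and 0% for Ccr8. MC38 held only 11 Foxp3-positive barcodes in NT and 10 in RT at this depth, of which 90.9% and 70% had Ikzf2 and 63.6% and 50% had Il2ra. Ccr8 was found in none of these Foxp3-positive MC38 barcodes and in 3.66% (NT) and 3.67% (RT) of the Foxp3-negative ones, and Il10 in MC38 RT was found in 10% of the positive and 9.17% of the negative ones. Ikzf2 was more frequent among Foxp3-negative T cells of MC38 (42.7% in NT and 42.2% in RT) than in Panc02-SIY RT (20.4%). At this depth, however, only 19 of 88 regulatory T cell-like barcodes in MC38 and 112 of 307 in Panc02-SIY had a Foxp3 UMI. The Foxp3-negative T cells thus included regulatory T cell-like ones, which were a larger part of T cells in MC38. Their part in this difference was not tested. These shares are over barcodes of the same libraries and carry no test.

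**Figure D2:**
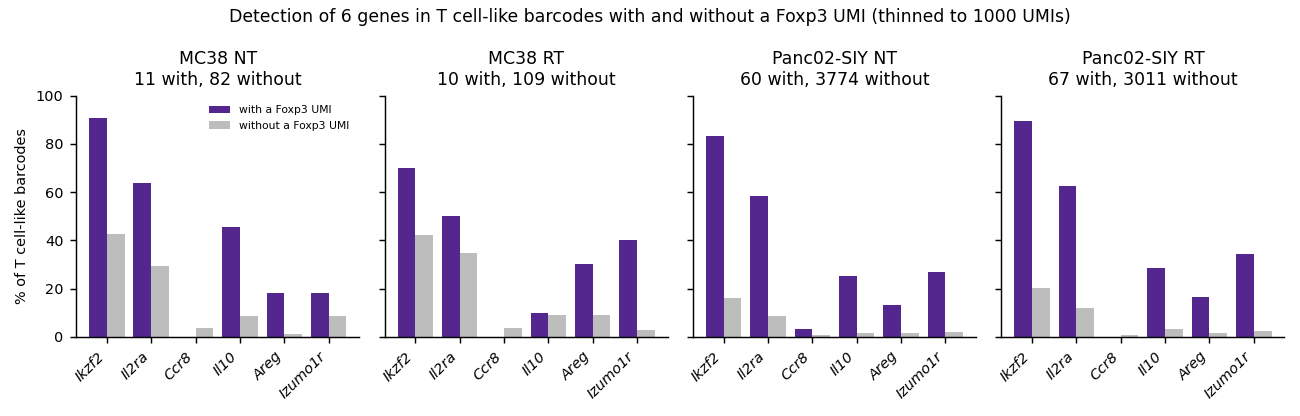
Percent of T cell barcodes, thinned to 1000 UMIs, with at least 1 UMI of each other member among Foxp3-positive and Foxp3-negative barcodes of the 4 groups. In Panc02-SIY NT Ikzf2 was found in 83.3% of Foxp3-positive and 16.1% of Foxp3-negative barcodes, and Ccr8 was the least frequent member in both.

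Across the 26 clusters with at least 50 barcodes, the genes whose log2(CPM + 10) profile was most like that of Foxp3 were Lrrc32 (r = 0.980), Ncmap (0.968), Itgb8 (0.956), Frmd5 (0.950) and Penk (0.939), among 7020 genes compared. Profiles close to that of Ikzf2 were those of Tnik (0.908), Galnt6 (0.898), Rnf125 (0.882) and Icos (0.872), none of which was among the 5 closest to Foxp3. Il2ra lay closest to Tnfrsf4 (0.930), Tnfrsf18 (0.917), Sv2c (0.916), Il7r (0.916) and Slamf1 (0.914). Foxp3 itself was among the 5 closest profiles to Ccr8 (0.937), Izumo1r (0.917), Il10 (0.840) and Areg (0.793). The other profiles nearest to Ccr8 were Penk (0.965), Podnl1 (0.933), Izumo1r (0.928) and Ncmap (0.902). Those nearest to Izumo1r were Ncmap (0.892), Lrrc32 (0.892), Penk (0.879) and Tnfrsf4 (0.878). For Il10 they were Itgb8 (0.872), Lrrc32 (0.865), Ncmap (0.853) and Frmd5 (0.844), and for Areg they were Podnl1 (0.849), Penk (0.834), Rora (0.819) and Odc1 (0.785). The lowest likeness between members was between Ikzf2 and Areg (0.416). Clusters share libraries and differ in depth and size, and these values are descriptions without a test.

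Whether radiation changed the members within T cells was examined first, by summing the counts of all T cell-like barcodes per library and fitting all 16 libraries with edgeR's quasi-likelihood test. A gene counted as called when its fold change exceeded 1.3 and its p, adjusted over the 10679 genes tested by the Benjamini-Hochberg method, was below 0.1. T cells numbered 216 in MC38, with 12 to 53 per library, and 7015 in Panc02-SIY, with 274 to 1714 per library. These counts include 1669 barcodes in 5 sub-clusters led by genes of other classes, and the other 5562 lay outside them. Among the 5 were sub-clusters of 733 and 164 barcodes named NK cell-like and 1 of 373 barcodes led by Cd74 and C1qa. All 7 members passed the filter on low counts.

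None of the 7 members was called after radiation in Panc02-SIY T cells, where 4.61% of all genes were called. For 3 of the 7 every RT library lay above every NT library, which held for 10.7% of all genes tested. Il10 was at 48.9, 30.7, 34.4 and 16.2 CPM in the 4 NT libraries and at 84.1, 66.8, 97.5 and 53.8 CPM in the 4 RT libraries, so that each RT library lay above every NT library (log2 fold change 1.16, SE 0.48, edgeR adjusted p = 0.252). Il2ra was at 141, 133, 129 and 99.1 CPM in NT and at 217, 224, 216 and 165 CPM in RT, again without overlap (log2 fold change 0.62, SE 0.28, edgeR adjusted p = 0.275). Izumo1r was at 29.4, 21.2, 23.9 and 17.1 CPM in NT and at 39.8, 35.4, 56.4 and 32.8 CPM in RT (log2 fold change 0.77, SE 0.36, edgeR adjusted p = 0.310). These 3 genes passed the limits when only the 2 Panc02-SIY groups were fitted, with edgeR adjusted p-values of at most 0.0698, in a fit that called 8.05% of all genes.

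Levels outside the regulatory T cell-like barcodes are given as values. In the remaining Panc02-SIY T cells Il2ra was 96.5 ± 10.9 CPM in NT and 150.0 ± 11.2 CPM in RT (SD, n = 4 libraries each), and the lowest RT library (135 CPM) lay above the highest NT library (109 CPM), as for 10.6% of all genes in these cells. Il10 was 12.6 ± 3.22 CPM in NT and 31.9 ± 12.9 CPM in RT in the same cells, with 1 RT library (14.9 CPM) inside the NT range. In CD8 T cell-like barcodes Il10 was 33.6, 51.7, 54.8 and 27.9 CPM in NT and 112, 69.5, 85.0 and 62.0 CPM in RT. Il2ra was 109, 80.5, 77.7 and 62.0 CPM in NT and 122, 117, 158 and 141 CPM in RT there, and every RT library lay above every NT library for these 2 members, as for 4% of all genes. No test was run on these subsets.

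The other members overlapped between NT and RT in Panc02-SIY T cells. Ikzf2 was 308 ± 119 CPM in NT and 469 ± 157 CPM in RT (log2 fold change 0.52, edgeR adjusted p = 0.473). Foxp3 was 20.2 ± 20.5 CPM in NT and 25.6 ± 15 CPM in RT, a spread as wide as the mean, with a lowest value of 1.97 CPM in NT 4. Areg was 36.2 ± 14.5 and 36.0 ± 9.80 CPM, and Ccr8 was 6.58 ± 4.87 and 5.91 ± 2.24 CPM (SD, n = 4).

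In MC38 T cells none of the 7 members was called after radiation, where 0.599% of all genes were called. Areg was at 59.4, 0, 19.1 and 39.0 CPM in NT and at 66.8, 921, 142 and 80.0 CPM in RT (log2 fold change 2.38, SE 0.92, edgeR adjusted p = 0.368). Every RT library lay above every NT library, as for 1.79% of all genes, but in RT 2 a single barcode held 42 of the 43 Areg UMIs of its 12 T cells, and that barcode was among those found in several libraries. Without shared barcodes the Areg level of RT 2 was 57.9 CPM and the log2 fold change 1.32 (edgeR adjusted p = 0.709). Il2ra was 364 ± 203 CPM in NT and 512 ± 160 CPM in RT, Ikzf2 860 ± 307 and 892 ± 312 CPM, Il10 133 ± 102 and 126 ± 82.5 CPM, and Foxp3 57.5 ± 41.8 and 56.3 ± 43.9 CPM (SD, n = 4). Izumo1r was 76.3 ± 85.9 and 93.0 ± 67.2 CPM, and Ccr8 18.0 ± 13.6 and 46.6 ± 33.9 CPM. All of these overlapped between NT and RT. The difference between the radiation effects in MC38 and Panc02-SIY was itself tested, and it was called for none of the members and for 0% of all genes in T cells (edgeR, with 565 genes at an unadjusted p below 0.05). Among members the smallest p was that of Areg (log2 difference 2.46, SE 1.05, edgeR adjusted p = 0.923).

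**Figure D3:**
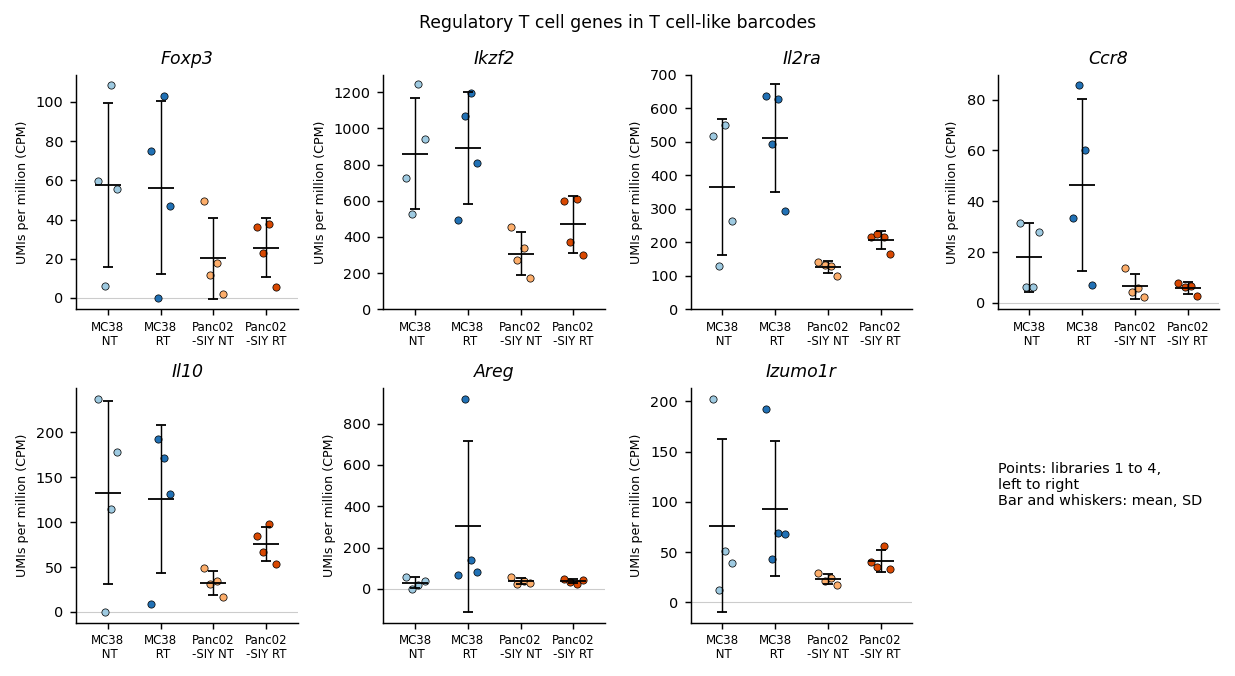
Level of each member in T cells of the 16 libraries in CPM on a linear axis, with 1 point per library and the mean and SD of each group. Il10, Il2ra and Izumo1r lie higher in RT without overlap in Panc02-SIY, as for 10.7% of all genes tested, and none of them was called. MC38 RT 2 stands apart for Areg at 921 CPM, where 1 barcode held 42 of 43 UMIs.

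T cells of the 2 tumors were compared next. In the untreated tumors 4 of 7 members were called as higher in MC38, where 5.08% of all genes were called as higher. Il2ra was at 517, 129, 549 and 262 CPM in MC38 NT against at most 141 CPM in Panc02-SIY NT (log2 fold change 1.43, SE 0.30, edgeR adjusted p = 0.00872), and 1 MC38 library lay inside the Panc02-SIY range. Ikzf2 was at 724, 528, 1245 and 942 CPM in MC38 NT, above the 455, 270, 337 and 171 CPM of Panc02-SIY NT in every library, as for 6.6% of all genes (log2 fold change 1.36, SE 0.34, edgeR adjusted p = 0.0225). Izumo1r was at 203, 12.3, 51.1 and 39.0 CPM in MC38 NT (log2 fold change 1.87, SE 0.53, edgeR adjusted p = 0.0447), and its call was lost without MC38 NT 1, where the log2 fold change fell to 0.46. Il10 was at 238, 0, 115 and 178 CPM in MC38 NT (log2 fold change 2.06, SE 0.61, edgeR adjusted p = 0.0601), and its call was lost without MC38 NT 1, 3 or 4 or Panc02-SIY NT 2, at adjusted p-values up to 0.309. With only the 2 groups compared, the calls of Il10 (adjusted p = 0.151) and Izumo1r (adjusted p = 0.127) were lost too. Foxp3 (log2 fold change 1.58, SE 1.22), Ccr8 (1.64, SE 0.83) and Areg (-0.19) were not called.

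In the irradiated tumors 3 of 7 members were called as higher in MC38, where 5.31% of all genes were called as higher. Il2ra was at 635, 493, 627 and 292 CPM in MC38 RT, above every Panc02-SIY RT library, as for 5.22% of all genes (log2 fold change 1.22, SE 0.30, edgeR adjusted p = 0.0204). The call was lost under the cell filter (log2 fold change 1.04, adjusted p = 0.132) and with 10 principal components (0.82, adjusted p = 0.350). Ccr8 was at 33.4, 85.7, 60.1 and 7.06 CPM in MC38 RT against 7.95, 6.39, 6.58 and 2.72 CPM in Panc02-SIY RT (log2 fold change 2.59, SE 0.76, edgeR adjusted p = 0.0486). Its call was lost without MC38 RT 2 (2.38), without MC38 RT 3 (1.89, adjusted p = 0.299) and without the shared barcodes (log2 fold change 1.12, adjusted p = 0.681). Areg was at 66.8 CPM or more in MC38 RT and at 46.6 CPM or less in Panc02-SIY RT (log2 fold change 2.28, SE 0.65, edgeR adjusted p = 0.0563), and its call was lost without MC38 RT 3 (2.36, adjusted p = 0.120) or Panc02-SIY RT 3 (2.16, adjusted p = 0.103) and with only the 2 groups compared (adjusted p = 0.151). Ikzf2 (log2 fold change 0.88, edgeR adjusted p = 0.140), Izumo1r (1.10), Il10 (0.74) and Foxp3 (1.44) were not called. Without shared barcodes Ikzf2 (1.62, edgeR adjusted p = 0.00405) and Izumo1r (1.29, adjusted p = 0.0184) were called, and with only the 2 groups compared both were called as well (adjusted p = 0.0778 and 0.0308). Areg was the only member with a fold change below 0 in either comparison.

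T cells of the 2 tumors differed in make-up and in other cells' RNA beside these results. The sub-clusters named CD8 T cell-like held 1968 Panc02-SIY barcodes and no MC38 barcode. MC38 T cells nevertheless held all 6 CD8 T cell markers, summing to 2081 to 6312 CPM in NT and 3021 to 5472 CPM in RT against 5504 to 10520 CPM over both Panc02-SIY groups, so the count of named barcodes does not show that MC38 lacked CD8 T cells. In addition, regulatory T cell-like barcodes were a larger part of the MC38 T cells. The 7 macrophage markers, all detected, summed to 517 to 1286 CPM in MC38 T cells and to 138 to 393 CPM in Panc02-SIY T cells. The part of these differences in the member levels was not tested. Without the shared barcodes the same 4 members were called in the untreated tumors, with Ikzf2 at a log2 fold change of 2.25 and Il2ra at 1.98, and with only 10 principal components in the clustering none of the 7 was called.

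The share of T cells that were regulatory T cell-like was higher in MC38 in every library. It was 36.8%, 16.7%, 63.0% and 29.0% in MC38 NT (36.4 ± 19.6%, SD, n = 4) and 44.4%, 33.3%, 55.3% and 37.7% in MC38 RT (42.7 ± 9.54%). In Panc02-SIY it was 10.2%, 4.00%, 7.33% and 0.933% in NT (5.62 ± 4.02%) and 12.0%, 6.25%, 10.0% and 2.87% in RT (7.80 ± 4.07%). The tumors did not overlap, with a difference of 30.8 percentage points in NT and 34.9 in RT (two-sided exact permutation test, p = 0.0286 each, the smallest that 4 against 4 allows, adjusted p = 0.0571 over 4 comparisons). Without any 1 of the 4 Panc02-SIY NT libraries the adjusted p of the NT comparison was 0.114, with differences of 29.2 to 32.3 percentage points. The tumors still did not overlap in these fits. With unequal group sizes, another split of the same libraries gave a difference at least as large (exact permutation p = 0.0571 each). The MC38 shares rest on 12 to 53 T cells per library, and the exact 95% binomial intervals of the pooled shares were 28.1% to 48.4% in NT and 34.8% to 53.1% in RT, which cover counting error only. Radiation moved the share by 6.32 percentage points in MC38 (exact permutation p = 0.6, adjusted p = 0.6) and by 2.19 in Panc02-SIY (exact permutation p = 0.486, adjusted p = 0.6), within the spread between libraries in this unpaired test. Each Panc02-SIY RT library lay above the NT library of the same number, and so did each MC38 RT library except number 3. A comparison paired by number was not tested.

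This contrast between tumors was seen in the share within T cells and depended on the clustering. Over all barcodes it was examined by library only with shared barcodes included. As a share of all barcodes, regulatory T cell-like barcodes were 2.69 ± 1.59% in MC38 NT, 4.17 ± 1.80% in MC38 RT, 2.40 ± 1.67% in Panc02-SIY NT and 2.57 ± 1.12% in Panc02-SIY RT (SD, n = 4), and these ranges overlapped. In MC38, barcodes found in several libraries were 47.1% of this denominator but 14.6% of the regulatory T cell-like barcodes. Without them 31 barcodes in MC38 NT, 45 in MC38 RT, 155 in Panc02-SIY NT and 205 in Panc02-SIY RT were regulatory T cell-like. All barcodes then numbered 110 to 291 per library in MC38 NT and 77 to 350 in MC38 RT. In Panc02-SIY they numbered 1081 to 4433 in NT and 1104 to 3227 in RT. Pooled by group, these counts make the regulatory T cell-like part of all barcodes larger in MC38 than in Panc02-SIY, in NT and in RT. The share per library was not calculated without shared barcodes, so the overlap above was examined only with them included. At a clustering resolution of 2 in place of 1 the difference in T cells was 3.56 percentage points in NT and 7.99 in RT (adjusted p = 0.486 each, exact permutation test). There the name was given to 9 MC38 NT and 19 MC38 RT barcodes, against 36 and 53 at resolution 1. In Panc02-SIY it was given to 157 and 203, against 156 and 205. The naming of the MC38 barcodes was thus less stable. Without shared barcodes, at resolution 1, the difference in T cells was 42.7 and 44.1 percentage points, at the same p-values as with them.

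Detection of Foxp3 itself was also higher on average in MC38, with the NT mean above the RT mean there, unlike the regulatory T cell-like share. Of T cells thinned to 1000 UMIs, 22.2%, 5.56%, 14.8% and 6.67% were Foxp3-positive in MC38 NT (12.3 ± 7.79%) and 17.6%, 0%, 10.8% and 5.66% in MC38 RT (8.53 ± 7.51%), where the 0 of 12 barcodes in RT 2 allows a share of up to 25%. In Panc02-SIY the values were 4.86%, 1.83%, 2.08% and 0.352% in NT (2.28 ± 1.88%) and 2.64%, 2.34%, 3.85% and 0.709% in RT (2.39 ± 1.29%). Unthinned, the group means were 19.9%, 15.3%, 4.81% and 5.01% in the same order of groups. The tumors differed by 10.0 percentage points in NT without overlap (exact permutation p = 0.0286, adjusted p = 0.114) and by 6.14 in RT with overlap (exact permutation p = 0.2, adjusted p = 0.4), or by 8.99 without MC38 RT 2 (adjusted p = 0.0571). Radiation effects were -3.79 percentage points in MC38 (exact permutation p = 0.514, adjusted p = 0.686) and 0.105 in Panc02-SIY (exact permutation p = 0.943).

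Detection in cells that should lack Foxp3 was far lower. At equal depth 21.6% of 88 regulatory T cell-like barcodes in MC38 and 36.5% of 307 in Panc02-SIY had a Foxp3 UMI, against 0.0646% of 1547 macrophage-like barcodes in MC38 and 0.147% of 1356 in Panc02-SIY. Before thinning the median depth was 2571 and 3972 UMIs per regulatory T cell-like barcode and 19227 and 16056 UMIs per macrophage-like barcode in MC38 and Panc02-SIY. Remaining T cells were at 1.61% of 124 in MC38 and 0.227% of 6605 in Panc02-SIY, the latter close to the share in macrophages, and 0 of 194 B cell-like barcodes in Panc02-SIY were positive, which allows a share of up to 1.55%.

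**Figure D4:**
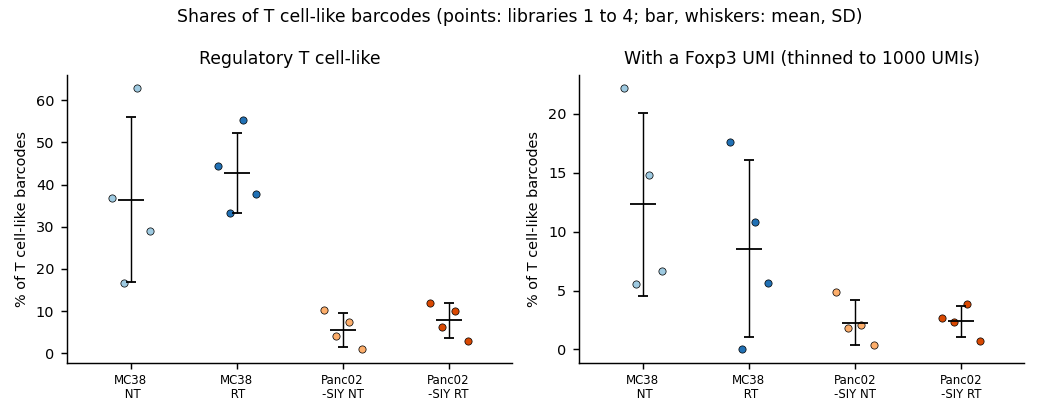
Percent of T cells that were regulatory T cell-like and percent that were Foxp3-positive after thinning to 1000 UMIs, with 1 point per library and the mean and SD of the 4 libraries of each group. The regulatory T cell-like share lies at 16.7% or more in MC38 and at 12.0% or less in Panc02-SIY, and NT and RT overlap within each tumor.

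Within the regulatory T cell-like barcodes the members could be tested only in Panc02-SIY, since MC38 NT 2 held 3 such barcodes and MC38 RT 2 held 4. None of the 7 members was called after radiation there, where 0.318% of 5338 genes were called. Il10 was at 578, 910, 618 and 497 CPM in NT and at 844, 846, 836 and 1396 CPM in RT (log2 fold change 0.53, SE 0.32, edgeR adjusted p = 0.998). The highest NT library lay above 3 of the 4 RT libraries. Foxp3 was at 634, 515, 447 and 417 CPM in NT and at 395, 479, 447 and 445 CPM in RT (log2 fold change -0.24, SE 0.28, edgeR adjusted p = 0.998). Il2ra was 975 ± 419 and 1287 ± 206 CPM, Ikzf2 3177 ± 346 and 3638 ± 519 CPM, and Izumo1r 386 ± 99.1 and 435 ± 148 CPM (SD, n = 4, NT and RT). Areg was 315 ± 82.5 and 411 ± 275 CPM, and Ccr8 32.6 ± 14.9 and 30 ± 6.34 CPM. Library RT 4, with 33 of these barcodes, was the highest for Il10 and Areg.

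In the few MC38 regulatory T cell-like barcodes the levels are given as values without a test. The name was given to 36 barcodes in NT and 53 in RT, but to 9 and 19 at a clustering resolution of 2. Foxp3 was at 334, 161, 286 and 134 CPM in NT and at 302, 0, 242 and 205 CPM in RT, each below the lowest Panc02-SIY library (395 CPM). The share of all genes with such a separation was not calculated. The values of NT 2 and RT 2 rest on only 6202 and 13034 UMIs of all genes. Areg was at 406, 0, 35.7 and 235 CPM in NT and at 268, 3299, 313 and 397 CPM in RT, the 3299 CPM resting almost wholly on the single barcode named above. Il2ra was more even, at 1343 to 1765 CPM in NT and 1177 to 1576 CPM in RT, against 481 to 1501 CPM in Panc02-SIY. Ikzf2 ranged from 1845 to 6288 CPM, Il10 from 0 to 1193 CPM and Izumo1r from 76.7 to 637 CPM. Macrophage markers summed to 906 to 1981 CPM in these MC38 barcodes and to 67.2 to 530 CPM in those of Panc02-SIY, and their part in the Foxp3 levels was not tested.

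**Figure D5:**
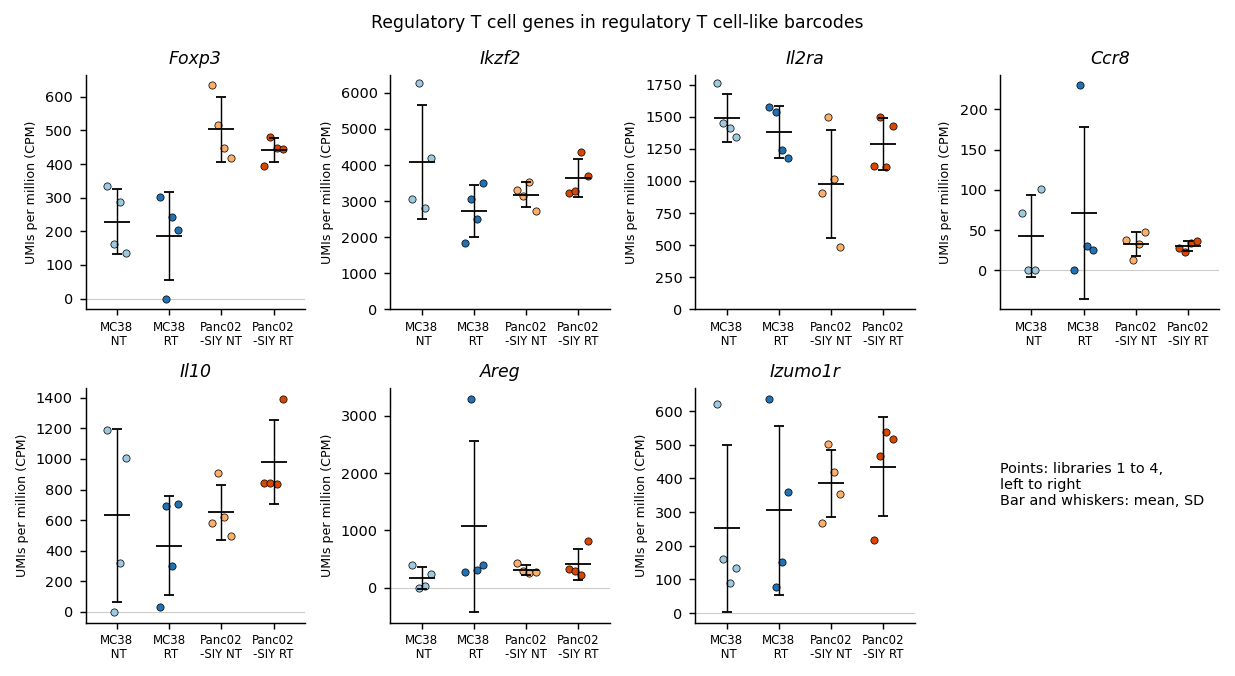
Level of each member in regulatory T cell-like barcodes of the 16 libraries in CPM on a linear axis, with 1 point per library and the mean and SD of each group. Foxp3 in MC38 lies at 334 CPM or less and in Panc02-SIY at 395 CPM or more, and NT and RT overlap for Foxp3 in both tumors. The share of all genes separated between tumors in this way was not calculated.

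In counts summed over all CD45+ cells of a library, a member's level depends on how many cells express it and on the RNA in each. The sum alone does not tell fewer cells from less RNA per cell, and shares and levels by class are given above. Areg was the only member called after radiation in MC38, where 5.57% of all genes were called as higher. It was at 5.03, 0.584, 3.58 and 3.41 CPM in NT and at 6.49, 15.7, 9.13 and 5.88 CPM in RT, every RT library above every NT library, as for 5.51% of all genes (log2 fold change 1.56, SE 0.41, edgeR adjusted p = 0.0317). MC38 NT held 75 Areg UMIs and MC38 RT 148, of which 26 and 113 came from regulatory T cell-like barcodes and 41 and 26 from macrophage-like barcodes. In RT 2 a single barcode, found in several libraries, held 42 of the 113. The call was lost without shared barcodes, where Areg was at 39.9, 0, 8.74 and 18.3 CPM in NT and at 33.6, 5.95, 46.6 and 32.3 CPM in RT, with overlap (log2 fold change 0.91, edgeR adjusted p = 0.593). Without MC38 RT 2 it was kept at a log2 fold change of 1.22 (edgeR adjusted p = 0.0893). The remaining 6 members were not called, with log2 fold changes from 0.14 for Il10 to 1.16 for Ccr8.

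None of the 7 members was called in all CD45+ cells of Panc02-SIY, where 12.5% of all genes were called. Areg was at 35.1, 18.7, 22.7 and 22.3 CPM in NT and at 17.4, 18.7, 12.9 and 21.5 CPM in RT (log2 fold change -0.53, SE 0.30, edgeR adjusted p = 0.302). Of its UMIs, 1220 of 1769 in NT and 766 of 1059 in RT came from T cells, and 446 and 147 came from non-leukocyte-like barcodes. Il10 was 24.5 ± 7.39 CPM in NT and 34.2 ± 7.48 CPM in RT (log2 fold change 0.43, edgeR adjusted p = 0.631). The difference of the radiation effects between tumors was called for none of the members, where 0.145% of all genes were called, and Areg was nearest (log2 difference 2.09, SE 0.50, edgeR adjusted p = 0.136).

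T cells were 8.21% of the MC38 barcodes and 38.7% of the Panc02-SIY barcodes, and barcodes named macrophage-like were 61.9% and 7.82%. In MC38, 63.7% of the macrophage-like and 29.2% of the T cell barcodes were found in several libraries. The make-up without shared barcodes was not calculated. A cluster of 1971 barcodes, 1338 of them from Panc02-SIY NT and 607 from Panc02-SIY RT, had 6 of 7 macrophage markers raised. It stayed unnamed for its low UMIs, so the macrophage-like share of Panc02-SIY may be too low. The part of this make-up in the next results was not tested. All 7 members were called as lower in MC38 than in Panc02-SIY in untreated CD45+ cells, where 31.1% of all genes were called as lower. Areg had the largest difference (log2 fold change -2.70, SE 0.37, edgeR adjusted p = 1.30e-05), followed by Ikzf2 (-1.96, SE 0.35, adjusted p = 0.000283). In irradiated CD45+ cells 3 of 7 were called as lower in MC38, where 27.7% of all genes were called as lower. They were Il10 (log2 fold change -1.79, SE 0.52, edgeR adjusted p = 0.0104), Ikzf2 (-1.56, SE 0.35, adjusted p = 0.00192) and Il2ra (-0.94, SE 0.37, adjusted p = 0.0459). Leaving out 1 library ended the untreated calls of Foxp3 and Izumo1r (without MC38 NT 2, 3 or 4 or Panc02-SIY NT 1 or 3, with log2 fold changes from -2.23 to -1.11 for Foxp3 and from -1.52 to -1.21 for Izumo1r) and the irradiated call of Il2ra (-0.71 without MC38 RT 2 and -0.86 without MC38 RT 4). Without shared barcodes none of the 7 members was called in either comparison, Ikzf2 was at 436, 327, 440 and 148 CPM in MC38 NT against 306, 196, 250 and 95.5 CPM in Panc02-SIY NT, and its log2 fold change turned to 0.50 in NT and 0.61 in RT.

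Other genes of the same pathways were read from lists of known members, with the rise or fall of each taken from the fit of T cells. In Panc02-SIY after radiation 2 of 20 measured regulatory T cell effector genes rose, namely the costimulatory receptors Icos (log2 fold change 0.66, edgeR adjusted p = 0.0633) and Tnfrsf9 (0.54, adjusted p = 0.0912), and none fell, where 1.97% of all genes rose. The median of this list was 0.40 against 0.02 for all genes. Of 11 genes of the interleukin-2 receptor pathway 3 rose: the cytokine Il2 (log2 fold change 1.15, edgeR adjusted p = 0.0747), the signaling inhibitor Socs2 (0.94, adjusted p = 0.000245) and the survival gene Bcl2 (0.71, adjusted p = 0.0473). The median of this list was 0.24. Foxo3 (0.70, edgeR adjusted p = 0.0472) and Satb1 (0.62, adjusted p = 0.0747) rose among 21 transcriptional regulators, with a list median of 0.35. Socs3 (0.65, edgeR adjusted p = 0.0870) rose among 6 genes of the interleukin-10 pathway, with a list median of 0.21. None of the 4 measured of 11 genes for ligands of the epidermal growth factor receptor and their shedding, and none of the 3 measured of 4 genes for ligands of CCR8 and CCR4, was called. In MC38 after radiation Icos was the only called gene of the 6 lists (0.85, edgeR adjusted p = 0.0943), where 0.309% of all genes rose. No listed gene was called for the difference of radiation effects in T cells or in the regulatory T cell-like barcodes of Panc02-SIY, where the effector list had a median of 0.02 against 0.00 for all genes.

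Between untreated tumors, 7 of 20 effector genes were higher in MC38 T cells and none was lower, with a list median of 0.75 against -0.08 for all genes, of which 5.08% were called as higher and 7.54% as lower. They included the receptors Tnfrsf4 (log2 fold change 2.34, edgeR adjusted p = 0.00232), Tnfrsf9 (1.19, adjusted p = 0.000105) and Tnfrsf18 (1.10, adjusted p = 0.000861), the ectonucleotidase Nt5e (1.14, adjusted p = 0.00125) and the actin-capping gene Capg (1.13, adjusted p = 0.00263). Of 21 regulators 2 were higher, Nr4a1 (1.19) and Maf (1.80), and 6 were lower, led by Nfatc1 (-1.39), Ikzf1 (-0.97) and Satb1 (-0.91). In the interleukin-2 receptor pathway Socs1, Socs2 and Il2rg were higher, and the receptor chain Il2rb (log2 fold change -0.96, edgeR adjusted p = 0.00237) and the kinase Jak1 (-0.66) were lower, so that Il2ra and Il2rb were called in opposite directions. Socs3 (1.77) and the chemokine Ccl17 (4.58) were also higher. In irradiated tumors, where 5.31% of all genes were called as higher and 6.02% as lower, 8 of 20 effector genes were higher and none was lower, again with Tnfrsf9 (1.04), Nt5e (1.11), Tnfrsf18 (0.96) and Capg (1.10), and Il2rb was again lower (-1.20). Of the regulators 1 was higher (Runx1, 0.97) and 6 were lower, and in the interleukin-2 receptor pathway 2 were higher and 3 were lower. The macrophage marker sums and the T cell make-up given above moved with these lists too. Every marker that named the regulatory T cell-like barcodes, except Ikzf4, was in the effector list. The calls of that list are therefore not independent of the share of these barcodes.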

How the data were processed

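The authors deposited raw UMI counts per barcode and gene, 1 matrix per library, made from 10x 3' version 3.0 libraries of live sorted CD45+ cells. The submitters' processing notes name bcl2fastq 2.20.0, Cell Ranger 3.1.0 and mm10, and an aggregated matrix was not used. The members and lists were chosen with earlier results of these data known. Each barcode was counted once, in the library with most of its UMIs. Barcodes were clustered in scanpy 1.11.5 (30 principal components, resolution 1) without the 7 members, clusters were named from at least 3 raised markers, and T cells were clustered again. Clusters without a clear name stayed unnamed. No cell filter was applied in the main fits, and the automatic doublet threshold marked 71 barcodes, too few to be used, so the 5% with the highest scores were removed as an alternative. Counts were summed per library over T cells, regulatory T cell-like barcodes (where each library of the groups compared had at least 5) and all barcodes, and fitted in edgeR 4.0.16 (R 4.3.3; TMM, robust quasi-likelihood, filterByExpr with a minimum count of 3 and total of 15, 1 coefficient per group). Shares were compared by exact two-sided permutation of libraries and called at an adjusted p below 0.1. The scripts were tested on simulated data. Named genes were the 7 members, at most 5 called genes per list and comparison by p, and the 5 profiles most like each member, of which 1 is not reported here. Library pairs within a group differed beyond sampling noise (chi-square per degree of freedom of at least 5.00). Depth per library is given with the results, and intervals cover counting error only. Alternatives included DESeq2 1.42.0, other scalings and filters, other clustering settings and leaving out each library. Removing barcodes found in several libraries, and removing T cell sub-clusters led by other classes, were added after seeing the data.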

Additional observations from a re-analysis of the deposited data

Results flagged for a closer look

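In 5 of 78 groups of 4 libraries examined, 1 library stood apart from the other three by Dixon's ratio, where chance alone flags about 1 group in 20. Izumo1r in all CD45+ cells was at 13.5 CPM in MC38 NT 1 and at 0.584 to 1.96 CPM in the other untreated MC38 libraries. Areg in T cells was at 921 CPM in MC38 RT 2 and at 66.8 to 142 CPM in the other irradiated MC38 libraries, with 42 of 43 UMIs in 1 barcode. Il2ra in T cells was at 165 CPM in Panc02-SIY RT 4, below the 216 to 224 CPM of the other irradiated Panc02-SIY libraries. In the regulatory T cell-like barcodes of the same library, Il10 was at 1396 CPM against 836 to 846 CPM in the others, and Areg was at 818 CPM against 218 to 320 CPM, from 33 barcodes.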

How the results depend on the processing

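Among the values of single members under alternatives, 1223 kept their direction and their side of the threshold, 50 lost a call, 25 gained one and 63 changed sign, 6 of them losing a call as well. Removing barcodes found in several libraries, chosen after seeing the data, gave 0 members called in CD45+ cells in MC38 after radiation, in untreated tumors and in irradiated tumors, and 1 (Izumo1r) in Panc02-SIY T cells after radiation. It turned, in CD45+ cells, the log2 differences between untreated tumors to 0.50 (Ikzf2), 0.20 (Il10), 0.30 (Il2ra) and 0.086 (Foxp3), and those between irradiated tumors to 0.61 (Ikzf2), 0.61 (Il2ra), 0.44 (Foxp3), 0.90 (Areg), 0.067 (Izumo1r) and 0.40 (Ccr8). In T cells it turned Areg between untreated tumors to 0.68, and the MC38 radiation effects to -0.14 (Ikzf2), -0.081 (Foxp3) and -0.69 (Ccr8). Removing T sub-clusters led by other classes turned Izumo1r in MC38 to -0.23, Ccr8 in Panc02-SIY to 0.011 and Areg between untreated tumors to 0.020. The number of members called in T cells after radiation was 1 in MC38 by DESeq2 (Areg), and in Panc02-SIY 1 with the replicate block (Il2ra), 3 with only the 2 groups compared and 1 with all barcodes as deposited. Between untreated tumors it was 2 with only the 2 groups compared and 0 with 10 principal components, and leaving out each library gave 2 to 5, lowest without MC38 NT 1. Between irradiated tumors leaving out each library gave 1 to 4 in T cells, lowest without MC38 RT 3. In CD45+ cells it was 5 with only the 2 groups compared and 5 with all barcodes. Deviations of same-numbered NT and RT libraries correlated at -0.077 to 0.16 in MC38, where only NT 1 correlated best with its own number. In Panc02-SIY the correlations were 0.52, 0.30 and 0.78 for numbers 1, 3 and 4, each the highest of its NT library. Number 2 was at -0.20 there. The main fits used no pairing, and the replicate block was an alternative. The block gave libraries of the same number a shared effect across both tumors, so it does not test pairing within Panc02-SIY alone. No label links the numbers of the 2 tumors. The replicate block turned Foxp3 in Panc02-SIY CD45+ cells to 0.14, added Ccr8 between untreated tumors and Ikzf2 between irradiated tumors in T cells and Izumo1r between irradiated tumors in CD45+ cells, and lost Areg between irradiated tumors in T cells.

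For the Foxp3-positive share, all barcodes as denominator turned the differences to 0.0693 percentage points (MC38 radiation), -0.22 (Panc02-SIY radiation) and -0.14 (untreated tumors), and 10 principal components turned the MC38 radiation effect to 1.3. Leaving out each library gave -0.54 to 0.96 for the Panc02-SIY radiation effect and 3.11 to 8.99 between irradiated tumors, past the threshold without MC38 RT 2. For the regulatory T cell-like share, all barcodes as denominator, shared ones included, gave 0.30 between untreated and 1.61 between irradiated tumors. Resolution 2 gave 3.56 and 7.99, and the cell filter turned the MC38 radiation effect to -0.42. Leaving out each library gave -0.25 to 15.2 for the MC38 radiation effect. Between untreated tumors it gave 21.9 to 37.3, past the threshold except without any 1 of the Panc02-SIY NT libraries. The tumors did not overlap in those fits either.

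Small uncalled log2 fold changes also changed sign. In MC38 T cells Izumo1r turned to -0.0196 (RLE), -0.0182 (no filter), -0.0295 (minimum count 10) and -0.0222 (doublets removed), Ikzf2 to -0.0074 (minimum count 10) and -0.10 (cell filter), and Il10 to 0.068 (10 principal components). Areg in Panc02-SIY T cells turned to 0.064 (doublets removed) and 0.078 (10 principal components), Areg between untreated tumors to 0.10 (all barcodes), and Il10 in MC38 CD45+ cells to -0.040 (DESeq2) and -0.013 (cell filter). Leaving out each library in turn gave, in MC38 T cells, -0.22 to 0.25 for Ikzf2, -0.57 to 0.36 for Il10, -0.21 to 0.59 for Foxp3 and -0.37 to 1.38 for Izumo1r. In Panc02-SIY T cells it gave -0.11 to 1.21 for Foxp3, -0.22 to 0.17 for Areg and -0.50 to 0.34 for Ccr8, and between untreated tumors -0.96 to 0.17 for Areg. In Panc02-SIY regulatory T cell-like barcodes it gave -0.29 to 0.47 for Areg, -0.014 to 0.36 for Izumo1r and -0.36 to 0.039 for Ccr8. In CD45+ cells it gave -0.17 to 0.87 for Il10 and -0.093 to 2.15 for Izumo1r in MC38, -0.17 to 0.24 for Ikzf2 and -0.55 to 0.66 for Foxp3 in Panc02-SIY, and -0.49 to 0.45 for Ccr8 between irradiated tumors. The cause of these changes was not tested.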

Other observations

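Members outside T cells also differed between libraries, and these values were not tested. Ikzf2 in NK cell-like barcodes of Panc02-SIY was at 119, 171, 161 and 124 CPM in NT and at 71.8, 79.5, 93.4 and 141 CPM in RT, with 3 of 4 irradiated libraries below every untreated one. Il10 in macrophage-like barcodes of Panc02-SIY was at 0, 33.2, 53.2 and 29.4 CPM in NT and at 2.9, 16.5, 29.7 and 32.2 CPM in RT, and it was at 4.0 CPM or less in every MC38 library. Areg in non-leukocyte-like barcodes of Panc02-SIY was at 52.6, 72.9, 3.2 and 54.9 CPM in NT and at 5.3, 27.2, 0 and 61.9 CPM in RT.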
